A study of Homo sapiens with 16 samples.

Results

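Transcript levels of 10 genes of purine salvage, purine breakdown and nucleoside transport were followed in LNCaP, an androgen-responsive line of human prostate cancer cells. The genes, HPRT1, APRT, ADK, PNP, ADA, AMPD2, AMPD3, NT5C2, SLC29A1 and SLC43A3, were taken by name, and not by a rule on their values, from the 62754 genes of the deposited count table. They were chosen with earlier results of these data known. The filter on low counts kept 9 of the 10 and dropped SLC43A3. Kept were 18549 genes in all.

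Wild-type (WT) LNCaP cells and p53 knockout (p53 KO) LNCaP cells made by CRISPR were plated at 350000 cells per well. For 48 h they then received either DMSO as vehicle or GCN2iB at 5 µM, which gave 4 groups of 4 libraries. GCN2iB inhibits GCN2, a kinase that acts on eIF2 in cells short of amino acids and so raises translation of the transcription factor ATF4. The labels leave out whether the knockout was a clone or a pool and whether replicates came from separate cultures. The p-values thus reflect only how these libraries vary, which may be technical. The title of the series joins GCN2 and p53 to purine metabolism, and the design allows the purine genes to be compared by treatment, by genotype and by both.

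Cells obtain purine nucleotides by building the ring from small precursors on activated ribose (PRPP) or by salvage of ready-made bases and nucleosides. HPRT1 salvages hypoxanthine and guanine, APRT salvages adenine, and ADK phosphorylates adenosine to AMP. In the opposite direction AMP deaminases (AMPD2, AMPD3) turn AMP into IMP, the cytosolic nucleotidase NT5C2 dephosphorylates IMP and GMP, ADA deaminates adenosine to inosine, and PNP splits inosine and guanosine into base and sugar phosphate. SLC29A1 (ENT1) lets nucleosides equilibrate across the plasma membrane, and SLC43A3 carries purine bases.

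All 10 are protein-coding genes, placed here on GRCh38 by GENCODE 29, and a count covers the exons of the whole gene. HPRT1 lies on the X chromosome (chrX:134460153-134520513, plus strand), APRT on chr16:88809339-88811944 (minus) and ADK on chr10:74151185-74709303 (plus). PNP lies at chr14:20468954-20477094 (plus), ADA at chr20:44619522-44652233 (minus) and AMPD2 at chr1:109616104-109632051 (plus). AMPD3 and SLC43A3 share chromosome 11, at chr11:10308313-10507579 (plus) and chr11:57406954-57427580 (minus). NT5C2 is on the chromosome of ADK, at chr10:103088017-103193306 (minus), and SLC29A1 at chr6:44219505-44234151 (plus).

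Total counts per library ranged from 17418072 to 39915685. Levels are given as CPM, the counts of a gene relative to the TMM-scaled total of its library, in order of replicate. Changes are log2 ratios from edgeR's quasi-likelihood test, with Benjamini-Hochberg adjusted p over all 18549 genes and a threshold of 0.05 for a call. As a check of the labels, CDKN1A, a p53 target, read 247, 276, 277 and 298 CPM in WT vehicle and 35.4, 36.1, 35.4 and 43.1 in p53 KO vehicle. Under GCN2iB it read 483, 501, 498 and 375 in WT and 39.9, 38.5, 41.5 and 51.7 in p53 KO. The fourth GCN2iB library of each genotype thus lay nearer to the other genotype than its 3 companions, and called results under GCN2iB are given without them as well. CHAC1, a target of ATF4, fell under GCN2iB from 20 ± 1.79 to 2.08 ± 0.449 CPM in WT (mean ± SD, n = 4) and from 23.5 ± 2.93 to 3.4 ± 0.592 in p53 KO. The sum of 9 luminal prostate markers was 5350 to 6810 CPM in the 16 libraries, against 2.12 to 4.61 for 4 basal markers and 0 to 1.63 for 8 immune and blood markers.

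Per kilobase of exon the members spanned several orders of magnitude. APRT stood highest at 165 CPM per kb (mean of the 4 group means), followed by HPRT1 at 34, ADK at 23.2, SLC29A1 at 17.1, PNP at 16, NT5C2 at 10.7, AMPD2 at 9.04 and ADA at 4.75 CPM per kb. AMPD3, at 0.0377 CPM per kb, and SLC43A3, at 0.00205, were near the limit of detection. SLC29A1 and PNP were neighbours whose order depended on the group. In p53 KO vehicle SLC29A1 (13.5 ± 1.39 CPM per kb) lay below PNP (14.3 ± 0.535), within the SD, whereas in WT GCN2iB it lay above (21.3 ± 1.79 against 17.8 ± 1.05). NT5C2 and AMPD2 also came within their SD under GCN2iB in both genotypes, at 9.45 ± 0.416 and 9.87 ± 0.429 CPM per kb in WT and 9.42 ± 1.48 and 8.41 ± 0.406 in p53 KO. With the longest transcript as the length, the order of the 10 was unchanged.

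**Figure D1:**
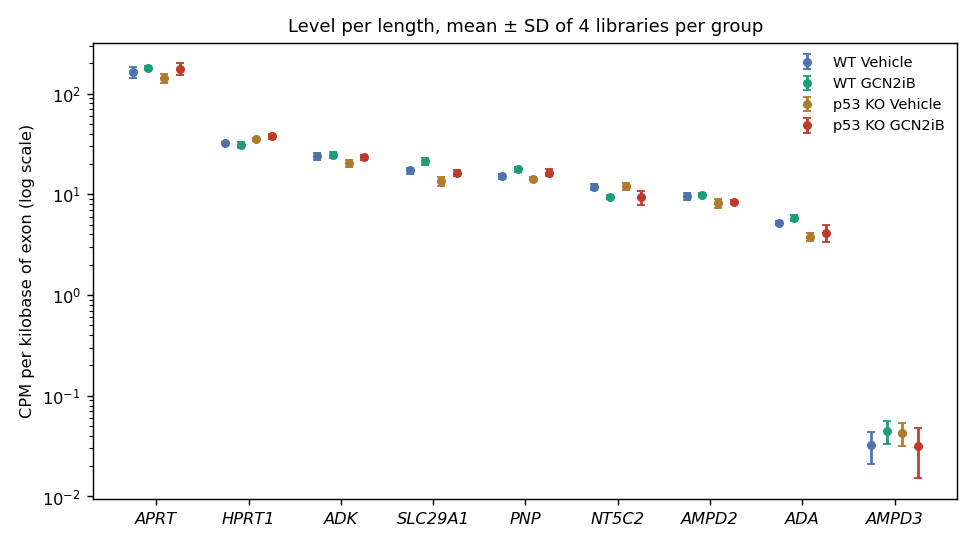
Mean CPM per kilobase of exon (log scale) with SD over 4 libraries, for the 9 members that passed the count filter and each of the 4 groups. APRT lies highest and AMPD3 lowest, at a mean of 0.0377 CPM per kb. The 4 groups of a gene lie close together beside the full range across genes, but neighbours such as SLC29A1 and PNP overlap.

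Among the base salvage enzymes, HPRT1 was higher in p53 KO than in WT cells under GCN2iB, and APRT rose with GCN2iB in p53 KO cells. HPRT1 read 53.6, 50.5, 53.1 and 53 CPM in WT vehicle and 48.8, 46.9, 49.6 and 55.2 in WT GCN2iB. In p53 KO it read 58.5, 58.4, 54.6 and 57 under vehicle and 59.8, 57.6, 61.2 and 66.4 under GCN2iB. Every p53 KO library lay above every WT library of the same treatment. Under GCN2iB the genotypes differed by a log2 change of 0.29 (SE 0.06, adjusted p = 0.00161), a 1.22-fold higher level in p53 KO, and by 0.30 (adjusted p = 0.00127) without the fourth GCN2iB library of both genotypes. With the trends of each library on GC and length taken out it was smaller, 0.14 (adjusted p = 0.0232). Under vehicle the change of 0.12 (SE 0.06) was not called (adjusted p = 0.183), although the groups did not overlap. It was called when library totals were the only scaling (0.18, adjusted p = 0.0353). GCN2iB itself gave no called change in HPRT1, at -0.07 (SE 0.06, adjusted p = 0.479) in WT and 0.10 (SE 0.06, adjusted p = 0.277) in p53 KO. HPRT1 has 3 pseudogenes named after it in the annotation, so a part of its reads may be assigned with less certainty.

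APRT read 253, 289, 295 and 338 CPM in WT vehicle and 325, 304, 340 and 331 in WT GCN2iB. In p53 KO it read 218, 264, 271 and 269 under vehicle and 303, 303, 283 and 381 under GCN2iB. The p53 KO groups did not overlap and the WT groups did. With GCN2iB APRT rose 1.24-fold in p53 KO (log2 0.31, SE 0.09, adjusted p = 0.0167), against 0.14 (SE 0.09, adjusted p = 0.264) in WT. The p53 KO rise lost its call without p53 KO vehicle replicate 1 (0.24, adjusted p = 0.0668), without p53 KO GCN2iB replicate 4 (0.22, adjusted p = 0.0662) and without the fourth GCN2iB library of both genotypes (0.21, adjusted p = 0.0748). Between genotypes APRT was not called, with -0.20 (SE 0.09, adjusted p = 0.12) under vehicle and -0.03 (SE 0.09, adjusted p = 0.834) under GCN2iB. The vehicle difference was called under other settings, with no count filter (-0.21, adjusted p = 0.033), with the GC and length correction (-0.25, adjusted p = 0.000132) and without WT vehicle replicate 1 (-0.28, adjusted p = 0.0273).

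ADK, which competes with ADA for adenosine, was lower in p53 KO than in WT cells under vehicle. It read 85.3, 70.7, 73.6 and 76.1 CPM in WT vehicle and 71.5, 60.0, 65.2 and 63.6 in p53 KO vehicle. Only the highest p53 KO library, replicate 1, reached into the WT range. The log2 change was -0.23 (SE 0.07, adjusted p = 0.0223). Its call was lost without WT vehicle replicate 1 (-0.18, adjusted p = 0.0575) and without p53 KO vehicle replicate 2 (-0.20, adjusted p = 0.0717). Library totals as scaling (-0.17, adjusted p = 0.0835) and a mean of at least 50 counts (-0.19, adjusted p = 0.0503) also ended it. Under GCN2iB ADK read 75.0, 74.3, 84.3 and 82.2 CPM in WT and 72.9, 71.1, 74.0 and 81.3 in p53 KO, and the genotypes overlapped (-0.08, SE 0.07, adjusted p = 0.467). Its rise with GCN2iB in p53 KO, 0.20 (SE 0.07, adjusted p = 0.0475), was close to the threshold. That call ended on leaving out any of 7 of the 8 libraries compared, with an adjusted p of up to 0.15. It ended too with the fourth GCN2iB library of both genotypes left out (0.16, adjusted p = 0.145). Library totals as scaling (0.13, adjusted p = 0.198) and no count filter (0.19, adjusted p = 0.0868) also ended it. A mean of at least 50 counts gave 0.17 (adjusted p = 0.0717), and only the groups compared gave 0.20 (adjusted p = 0.074).

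Of the breakdown enzymes, PNP rose and NT5C2 fell with GCN2iB in both genotypes, and ADA and AMPD2 were lower in p53 KO than in WT cells under both treatments. PNP read 57.8, 65.7, 65.6 and 61.9 CPM in WT vehicle and 73.3, 67.7, 75.0 and 78.1 in WT GCN2iB. In p53 KO it read 56.1, 58.9, 61.4 and 59.7 under vehicle and 69.8, 72.8, 60.1 and 71.2 under GCN2iB. The WT groups were separate, and in p53 KO GCN2iB replicate 3, the shallowest library of the series, fell within the vehicle range. The rise was 1.17-fold in WT (log2 0.23, SE 0.07, adjusted p = 0.0158) and 1.16-fold in p53 KO (0.22, SE 0.07, adjusted p = 0.0255). The WT call held on leaving out each library in turn, whereas the p53 KO call was lost for 5 of 8 (adjusted p up to 0.0919). Without the fourth GCN2iB library of both genotypes the adjusted p was 0.0426 in WT and 0.0558 in p53 KO. PNP did not differ between genotypes beyond the threshold, at -0.09 (SE 0.07, adjusted p = 0.389) under vehicle and -0.10 (SE 0.07, adjusted p = 0.302) under GCN2iB.

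NT5C2 read 64.4, 62.3, 64.2 and 55.5 CPM in WT vehicle and 49.2, 50.2, 49.8 and 45.6 in WT GCN2iB. In p53 KO it read 67.6, 59.4, 63.1 and 57.6 under vehicle and 52.8, 51.9, 52.3 and 37.1 under GCN2iB. All 8 GCN2iB libraries lay below all 8 vehicle libraries, and the fourth library was the lowest of each of the 4 groups. NT5C2 fell by 0.34 on the log2 scale in WT (SE 0.09, adjusted p = 0.00737) and by 0.35 in p53 KO (SE 0.09, adjusted p = 0.00674). Without the fourth GCN2iB library of both genotypes it fell by 0.31 in WT (adjusted p = 0.00178) and by 0.24 in p53 KO (adjusted p = 0.0148). The genotypes were close, with 0.01 (95% interval -0.17 to 0.19) under vehicle and -0.01 (-0.19 to 0.18) under GCN2iB. NT5C2 shares 1892 exon bases, 36.7% of its exons, with CNNM2 on the opposite strand, and the strand setting of the counting is not given in the sources used here. CNNM2 itself gave 0.10 (SE 0.08, adjusted p = 0.386) in WT and -0.01 (SE 0.07, adjusted p = 0.957) in p53 KO with GCN2iB.

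ADA carried the largest genotype difference among the called members. It read 14.1, 15.8, 15.1 and 14.4 CPM in WT vehicle and 9.22, 11.3, 11.4 and 11.3 in p53 KO vehicle, with no overlap. Under GCN2iB it read 15.5, 16.2, 18 and 17.1 CPM in WT and 11.2, 10.8, 10.1 and 15.1 in p53 KO, where the fourth library came close to the lowest WT library. The log2 change was -0.46 (SE 0.10, adjusted p = 0.00211) under vehicle, 1.38-fold lower in p53 KO. Under GCN2iB it was -0.49 (SE 0.10, adjusted p = 0.00124), 1.4-fold lower, and -0.62 (adjusted p = 4.41e-05) without the fourth GCN2iB library of both genotypes. GCN2iB gave no called change in ADA, with 0.17 (SE 0.10, adjusted p = 0.252) in WT and 0.14 (SE 0.10, adjusted p = 0.389) in p53 KO. Lymphoid cells are rich in ADA and PNP. The summed immune and blood markers were 0 to 0.39 CPM in WT libraries and 0.444 to 1.63 in p53 KO libraries, where ADA was lower, and 1 of the 8 markers passed the count filter. Their part in the result was not tested.

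AMPD2 read 58.2, 68.9, 67.1 and 69.4 CPM in WT vehicle and 47.8, 57.6, 56.9 and 61.7 in p53 KO vehicle, and these groups overlapped. Under GCN2iB it read 71.5, 66.2, 67.0 and 64.7 CPM in WT and 58.2, 59.5, 53.3 and 58.4 in p53 KO, with every p53 KO library below every WT library. The log2 change was -0.24 (SE 0.07, adjusted p = 0.0236) under vehicle and -0.23 (SE 0.07, adjusted p = 0.0263) under GCN2iB. The vehicle call was lost on leaving out any of 4 of the 8 libraries (adjusted p up to 0.0864). Library totals as scaling also ended it (-0.18, adjusted p = 0.0833). A mean of at least 50 counts gave -0.20 (adjusted p = 0.056), and only the groups compared gave -0.23 (adjusted p = 0.0585). The GCN2iB call was lost without WT GCN2iB replicate 1 (adjusted p = 0.0568) and without p53 KO GCN2iB replicate 3 (adjusted p = 0.061). It held without the fourth GCN2iB library of both genotypes (-0.26, adjusted p = 0.028). The log2 change of AMPD2 with GCN2iB was 0.03 (95% interval -0.12 to 0.18) in WT and 0.04 (-0.12 to 0.19) in p53 KO. AMPD3, the related deaminase best known from red blood cells, had 3 to 14 counts per library (0.0837 to 0.372 CPM). Its intervals spanned a log2 change of -0.42 to 1.25 for GCN2iB in WT and -0.50 to 1.16 for the genotypes under vehicle, and it was not called in any of the 6 comparisons. With so few counts only large differences could be seen.

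Of the carriers, SLC29A1 differed by both treatment and genotype. It read 70.8, 80.2, 72.7 and 81.0 CPM in WT vehicle and 94.5, 105, 91.2 and 85.7 in WT GCN2iB. In p53 KO it read 50.7, 64.4, 59.9 and 62.7 under vehicle and 69.6, 72.6, 66.0 and 77.7 under GCN2iB. Groups that differed in 1 factor did not overlap, and p53 KO GCN2iB overlapped with WT vehicle. With GCN2iB SLC29A1 rose 1.23-fold in WT (log2 0.30, SE 0.08, adjusted p = 0.00656) and 1.21-fold in p53 KO (0.27, SE 0.08, adjusted p = 0.0175). The genotype difference was -0.36 (SE 0.08, adjusted p = 0.00168) under vehicle and -0.39 (SE 0.08, adjusted p = 0.000733) under GCN2iB. The p53 KO rise was lost without p53 KO vehicle replicate 1 (0.20, adjusted p = 0.0744), without p53 KO GCN2iB replicate 4 (0.23, adjusted p = 0.0513) and with library totals as scaling (0.20, adjusted p = 0.0665). Without the fourth GCN2iB library of both genotypes the rise was 0.23 (adjusted p = 0.0486) in p53 KO and 0.34 (adjusted p = 0.00202) in WT, and the genotype difference under GCN2iB was -0.48 (adjusted p = 0.00016). The WT rise and both genotype differences held on leaving out each library in turn.

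SLC43A3 was almost undetected. All 8 WT libraries had 0 counts, which allows up to 0.0118 CPM over these libraries (3 counts, counting error only). In p53 KO the counts were 0, 0, 1 and 1 under vehicle and 0, 3, 0 and 0 under GCN2iB, where 0 counts in a single library allow 0.0717 to 0.173 CPM. The gene failed the count filter and was not tested. It shares 1349 exon bases (29.9% of its exons) with AP000781.2 on the same strand, and that gene had 0 counts in every library.

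**Figure D2:**
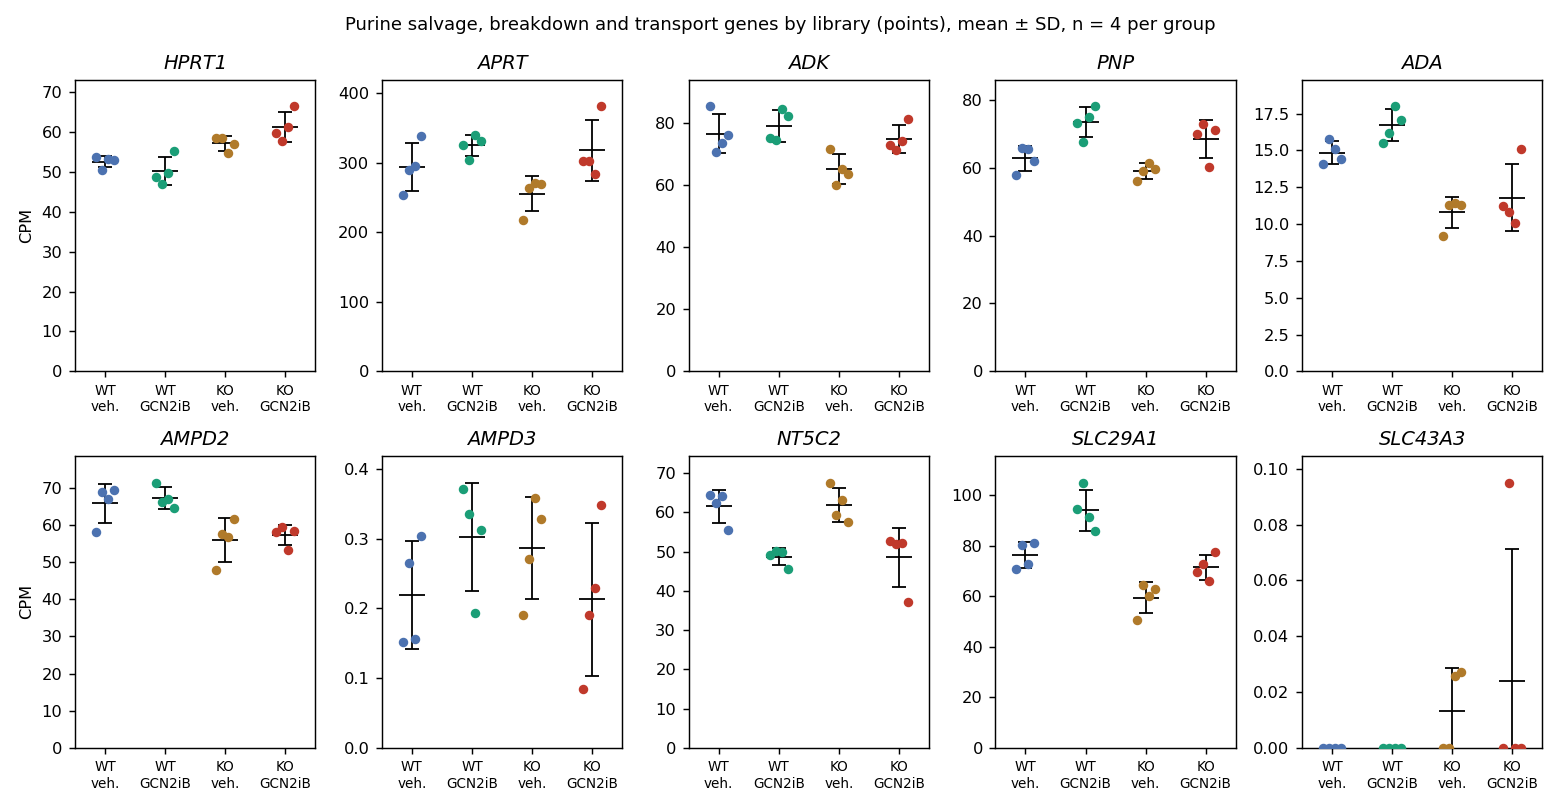
CPM of each of the 10 members by library (points, in order of replicate within a group), with the mean and SD of 4 libraries (bars), for WT and p53 KO cells under vehicle or GCN2iB. ADA and SLC29A1 lie lower in p53 KO, NT5C2 lies lower under GCN2iB, and SLC43A3 stays at 0 to 3 counts.

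The windows before the start of PNP, SLC29A1 and ADA are shown because the first pair rose with GCN2iB in both genotypes, and SLC29A1 and ADA were lower in p53 KO under both treatments. RefSeq promoters (GRCh38.p14) matched 9 of the 10 members. Each window was searched on both strands, from 250 bases before to 50 after the start, and the 250 bases before it are printed on the strand of the gene, with the matches in capitals. PNP lies on the plus strand at chr14:20469156-20469405, SLC29A1 on the plus strand at chr6:44219365-44219614 and ADA on the minus strand at chr20:44651700-44651949.
PNP: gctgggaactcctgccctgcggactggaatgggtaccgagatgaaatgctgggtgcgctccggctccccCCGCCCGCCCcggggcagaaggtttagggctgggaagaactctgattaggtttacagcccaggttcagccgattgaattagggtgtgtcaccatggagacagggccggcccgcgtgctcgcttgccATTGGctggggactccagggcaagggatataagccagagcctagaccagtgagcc
SLC29A1: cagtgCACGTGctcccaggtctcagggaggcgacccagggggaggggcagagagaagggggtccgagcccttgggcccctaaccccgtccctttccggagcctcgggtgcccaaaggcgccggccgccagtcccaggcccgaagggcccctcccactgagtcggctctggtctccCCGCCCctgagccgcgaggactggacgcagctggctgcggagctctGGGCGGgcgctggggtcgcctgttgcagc
ADA: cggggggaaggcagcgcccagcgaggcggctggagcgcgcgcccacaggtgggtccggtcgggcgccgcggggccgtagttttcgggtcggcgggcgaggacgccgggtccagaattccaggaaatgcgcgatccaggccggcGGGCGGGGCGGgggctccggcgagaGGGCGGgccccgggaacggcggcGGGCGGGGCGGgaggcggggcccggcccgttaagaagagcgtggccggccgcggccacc

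The capitals mark the GC box GGGCGG (45.0% of 35116 promoters hold it), CCAAT (34.6%) and the E-box CACGTG (7.26%), each on either strand. The ADA window held 5 GC boxes, the PNP window 2 that overlap and a CCAAT box, and the SLC29A1 window 3 GC boxes, of which 1 lies after the start, and an E-box. A GC box stood in 8 of the 9 windows, all but that of NT5C2. The windows of PNP, ADA, AMPD2, AMPD3 and NT5C2 lie inside their genes as GENCODE 29 draws them. Only for NT5C2 were the bases after the start found in no GENCODE 29 transcript of the gene. Its window is counted among the 9, but its lack of matches is not read as a trait of the NT5C2 promoter. The C/EBP-ATF response element TGATGNAA (3.62% of promoters) and the E2F site TTTNGCGC (1.79%) had 0 matches in the 9 windows, and a single arm of the p53 response element (6.63%) matched only in AMPD3. A match is a run of letters and not a site shown to be bound.

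For GCN2iB against vehicle in WT cells, 3 of the 9 tested members were called, PNP and SLC29A1 higher and NT5C2 lower. Over all genes tested 25.2% were called, 11.6% higher and 13.6% lower, so the members' share was near the background. The same 3 members were those whose groups did not overlap, against 26% of all genes. The median log2 change of the 9 was 0.14, against -0.027 over all genes.

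In p53 KO cells, 5 of 9 were called with GCN2iB, with APRT, ADK, PNP and SLC29A1 higher and NT5C2 lower. The background was 20.1%, with 11.4% higher and 8.71% lower. Of the 9, 3 did not overlap (APRT, NT5C2 and SLC29A1), against 21.7% of all genes. The median was 0.14 against -0.013. Markers of luminal prostate cells were lower with GCN2iB as well. Their summed level was 6500 to 6810 CPM in WT vehicle against 5720 to 5960 in WT GCN2iB. In p53 KO it was 6060 to 6180 CPM under vehicle against 5350 to 5820 under GCN2iB, and 6 of 9 were called lower in WT and 4 of 9 in p53 KO. Their part in the members' results was not tested. The count of members called with GCN2iB in p53 KO was the least stable of the comparisons. It fell to 2 (SLC29A1 and NT5C2) without the fourth GCN2iB library of both genotypes and to 1 (NT5C2) without p53 KO GCN2iB replicate 4. In each of these settings 16.1% of all genes were called.

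Between genotypes under vehicle, 4 of 9 members were lower in p53 KO (ADK, ADA, AMPD2 and SLC29A1) and 0 were higher. Of the members with higher values 0 had an unadjusted p under 0.05, and the DESeq2 and limma voom tests also called 0 higher. The background was 21.7%, with 9.63% higher and 12.1% lower. Of the 9, 3 did not overlap (HPRT1, ADA and SLC29A1), against 22.7% of all genes, and the median was -0.20 against 0.006. With library totals as scaling ADK and AMPD2 dropped out and HPRT1 was called higher. Under GCN2iB 4 of 9 were called, HPRT1 higher and ADA, AMPD2 and SLC29A1 lower in p53 KO, against a background of 23.9% (12.7% higher, 11.2% lower). The same 4 did not overlap, against 25.1% of all genes, and the median was -0.10 against 0.025. Of the 9 luminal markers, 1 was called higher and 4 lower in p53 KO under vehicle, and 1 higher and 2 lower under GCN2iB. Under vehicle their sums were 6500 to 6810 CPM in WT and 6060 to 6180 in p53 KO. Under GCN2iB these were 5720 to 5960 and 5350 to 5820. The summed basal markers were 2.12 to 2.96 CPM in WT libraries and 3.55 to 4.61 in p53 KO libraries, with 2 of 4 tested. The summed neuroendocrine markers were 4.2 to 5.02 and 5.42 to 8.15 CPM, with 1 of 5 tested. Fibroblast and stroma markers summed to 22.9 to 28 CPM in WT and 19.9 to 22.7 in p53 KO under vehicle. Under GCN2iB they summed to 20.3 to 24.3 and 17.3 to 19.6, with 5 of 6 tested. The part of these markers in the genotype results was not tested. These comparisons share libraries with those by treatment and are not independent of them.

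**Figure D3:**
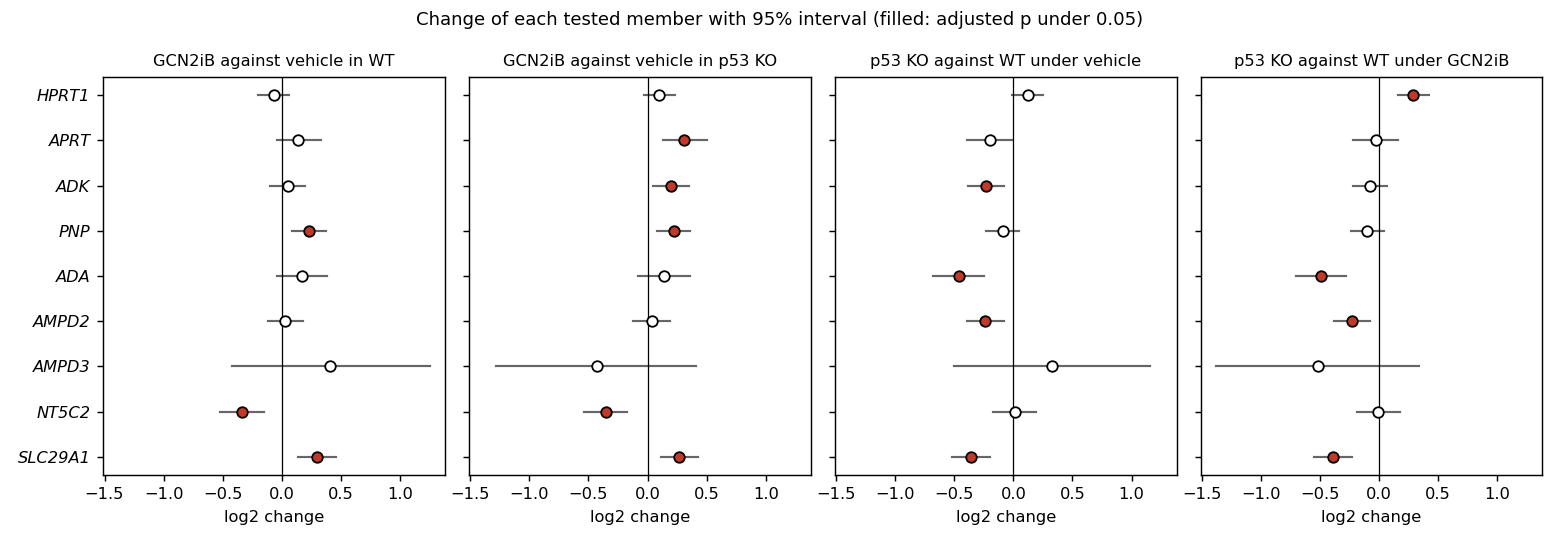
Log2 change of the 9 tested members with its 95% interval in 4 comparisons, with filled points for an adjusted p under 0.05 by edgeR. NT5C2 is below 0 and SLC29A1 and PNP above it with GCN2iB in both genotypes, ADA and SLC29A1 are below 0 for p53 KO against WT under both treatments, and AMPD3 has the widest intervals.

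Whether the response to GCN2iB depended on p53 was tested as the difference of the responses (p53 KO minus WT). Of the 9 members 0 were called by edgeR, 0 had an unadjusted p under 0.05, and DESeq2 and limma voom also called 0. Over all genes 1 was called, 0.00539% in either direction, with 0% higher and 0.00539% lower. The lowest unadjusted p was that of HPRT1, 0.0718, with a difference of 0.17 (95% interval -0.02 to 0.35). For SLC29A1 the difference was -0.03 (-0.26 to 0.20), for PNP -0.01 (-0.21 to 0.19), for NT5C2 -0.01 (-0.28 to 0.25), for ADK 0.15 (-0.06 to 0.36) and for APRT 0.17 (-0.10 to 0.44). Calls in p53 KO that were absent in WT (APRT and ADK) were therefore not shown to be a difference between the genotypes.

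Cells with both changes were set against cells with neither. In p53 KO GCN2iB against WT vehicle, HPRT1 was higher (0.22, SE 0.06, adjusted p = 0.00755) and ADA (-0.32, SE 0.10, adjusted p = 0.0175), AMPD2 (-0.20, SE 0.07, adjusted p = 0.0369) and NT5C2 (-0.35, SE 0.09, adjusted p = 0.00399) were lower. These 4 of 9 compare with a background of 37% (18.5% higher, 18.5% lower). Groups did not overlap for 2 members, HPRT1 and NT5C2, against 32% of all genes. The median was -0.09 against 0.01. SLC29A1, higher with GCN2iB and lower in p53 KO, gave -0.09 (95% interval -0.25 to 0.07), and PNP 0.13 (-0.01 to 0.27). The AMPD2 call was lost on leaving out any of 5 of the 8 libraries (adjusted p up to 0.0979), and the ADA call without p53 KO GCN2iB replicate 2 (adjusted p = 0.0649). Without the fourth GCN2iB library of both genotypes all 4 calls held, at 0.18 (adjusted p = 0.0204) for HPRT1, -0.47 (adjusted p = 0.000327) for ADA, -0.21 (adjusted p = 0.044) for AMPD2 and -0.23 (adjusted p = 0.00943) for NT5C2.

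Some of these results moved when trends on GC content and on transcript length were removed together, and the part of each was not tested. With each library's smooth trend on GC and on transcript length taken out, HPRT1 (40.6% GC) under GCN2iB changed from 0.29 to 0.14 between genotypes (adjusted p = 0.0232). Its call for both changes against neither ended (0.09, adjusted p = 0.106). NT5C2 (43.2% GC) in WT changed from -0.34 to -0.21 (adjusted p = 0.0187). ADK was called in addition with GCN2iB in WT (0.13, adjusted p = 0.044) and between genotypes under GCN2iB (-0.21, adjusted p = 0.00282), where PNP was added as well (-0.20, adjusted p = 0.0248). APRT (63.6% GC) was called between genotypes under vehicle (-0.25, adjusted p = 0.000132). The calls of ADA, of SLC29A1 and of PNP with GCN2iB held. This correction also called more of all genes, 32.2% with GCN2iB in WT and 31% in p53 KO. Between genotypes it called 33.2% under vehicle and 31.3% under GCN2iB.

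**Figure D4:**
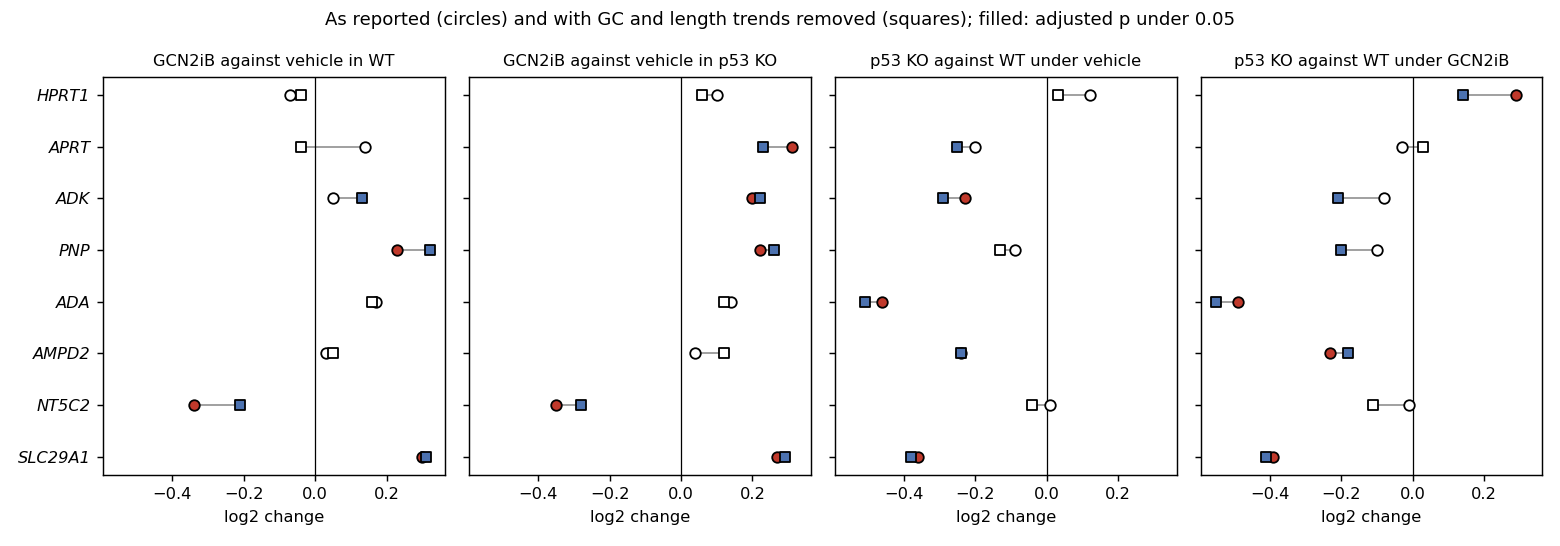
Log2 change of 8 members in 4 comparisons as reported (circles) and with the trends on GC and on length taken out (squares), filled where the adjusted p was under 0.05. HPRT1 between genotypes under GCN2iB moves from 0.29 to 0.14 and NT5C2 in WT from -0.34 to -0.21, while ADA and SLC29A1 keep their calls.

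The rest of the purine pathway was taken from lists written from general knowledge, and its counts are to be read against the shares of all genes given above for each comparison. Of 25 tested among 29 other salvage and interconversion enzymes, 2 were higher and 4 lower with GCN2iB in WT, and 6 higher and 3 lower in p53 KO. In p53 KO against WT, 1 was higher and 5 lower under vehicle, and 6 higher and 5 lower under GCN2iB. For GCN2iB in WT and for the genotypes under vehicle, these 6 of 25 stand beside 25.2% and 21.7% of all genes and are near the background. For p53 KO GCN2iB against WT vehicle 5 were higher and 6 lower. MTAP, which salvages adenine from methylthioadenosine, fell from 38.7 ± 1.83 to 28.5 ± 2.04 CPM with GCN2iB in WT (log2 -0.44, SE 0.07, adjusted p = 0.000114). AK4, a mitochondrial adenylate kinase, was lower in p53 KO under vehicle (268 ± 17.6 against 202 ± 12.6 CPM, log2 -0.41, SE 0.06, adjusted p = 1.54e-05). The deoxynucleoside kinase DCK rose with GCN2iB in p53 KO from 36.5 ± 3.34 to 44.2 ± 0.94 CPM (0.28, SE 0.07, adjusted p = 0.00854).

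Among 11 other carriers 8 were tested and 0 were higher in any comparison. Of all genes, 9.63% to 18.5% were higher in the comparisons of 2 groups. With 8 genes, 0 higher is near that background. With GCN2iB 2 were lower in WT and 1 in p53 KO, beside 13.6% and 8.71% of all genes. In p53 KO against WT 2 were lower under each treatment, beside 12.1% and 11.2%. In p53 KO GCN2iB against WT vehicle 6 of 8 were lower, beside 18.5% of all genes. ABCC4, which exports cyclic nucleotides and nucleotide analogues, stood at 301 ± 29.4 CPM in WT vehicle, 219 ± 6.04 in WT GCN2iB, 219 ± 21.2 in p53 KO vehicle and 169 ± 17.7 in p53 KO GCN2iB (mean ± SD, n = 4). It fell by 0.46 with GCN2iB in WT (SE 0.08, adjusted p = 0.000199) and by 0.38 in p53 KO (SE 0.08, adjusted p = 0.00151), opposite to SLC29A1. Between genotypes ABCC4 was lower in p53 KO, as SLC29A1 was, by -0.46 (SE 0.08, adjusted p = 0.00016) under vehicle. SLC29A4, a relative of SLC29A1 that carries monoamines and adenosine, was lower in p53 KO under vehicle (-0.34, SE 0.11, adjusted p = 0.0208) and GCN2iB (-0.46, SE 0.11, adjusted p = 0.0027).

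Of 10 tested genes for extracellular purine breakdown and adenosine receptors, 4 were lower with GCN2iB in WT and 1 in p53 KO, beside 13.6% and 8.71% of all genes. In p53 KO against WT 1 was higher and 3 lower under vehicle, and 2 were lower under GCN2iB, beside 12.1% and 11.2% lower. In p53 KO GCN2iB against WT vehicle 5 were lower, beside 18.5%. ADORA2B, an adenosine receptor, was 8.64 ± 0.486 CPM in WT vehicle and 5.53 ± 0.403 in p53 KO vehicle (log2 -0.64, SE 0.09, adjusted p = 1.45e-05). Of the 9 genes of de novo synthesis and the branches from IMP, 1 was higher and 1 lower with GCN2iB in WT. The shares of all genes were 11.6% and 13.6%. In p53 KO 4 were higher and 0 lower with GCN2iB, beside 11.4% and 8.71%. In p53 KO against WT 1 was higher and 2 lower under vehicle, beside 9.63% and 12.1%, and 0 were called under GCN2iB, beside 23.9%. In p53 KO GCN2iB against WT vehicle 2 were higher and 1 lower, beside 18.5% each. PFAS, a de novo enzyme, rose from 70.4 ± 3.58 to 105 ± 4.33 CPM in WT (0.58, SE 0.06, adjusted p = 5e-07), the opposite of ATIC, which makes IMP and fell from 235 ± 6.31 to 185 ± 6.92 (-0.35, SE 0.05, adjusted p = 4.08e-05). Of the 4 genes listed as PRPP synthetases, 0 were called with GCN2iB in WT and 1 was higher in p53 KO, beside 25.2% called and 11.4% higher. In p53 KO against WT 0 were called under vehicle and 2 were higher under GCN2iB, beside 21.7% called and 12.7% higher. In p53 KO GCN2iB against WT vehicle 1 was higher, beside 18.5%. PRPS1, a PRPP synthetase, rose with GCN2iB in p53 KO from 243 ± 6.37 to 280 ± 8.56 CPM (0.20, SE 0.05, adjusted p = 0.00548). In none of these 5 lists was a gene called for the difference of the responses.

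The spread within groups was shared between members. The first vehicle library deviated in the same direction in both genotypes for 8 of the 8 members compared. In each genotype it was the lowest of its group for APRT, PNP, ADA, AMPD2 and SLC29A1 and the highest for HPRT1, ADK and NT5C2. The 3 genes with high values there had the lowest GC content of the members, 40.6%, 41.7% and 43.2%, and the other 5 had 44.9% to 63.6%. The p53 KO GCN2iB library of replicate 4 was the highest of its group for 5 members and the lowest for NT5C2, which stood at 37.1 CPM against 51.9 to 52.8 in its companions.

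**Figure D5:**
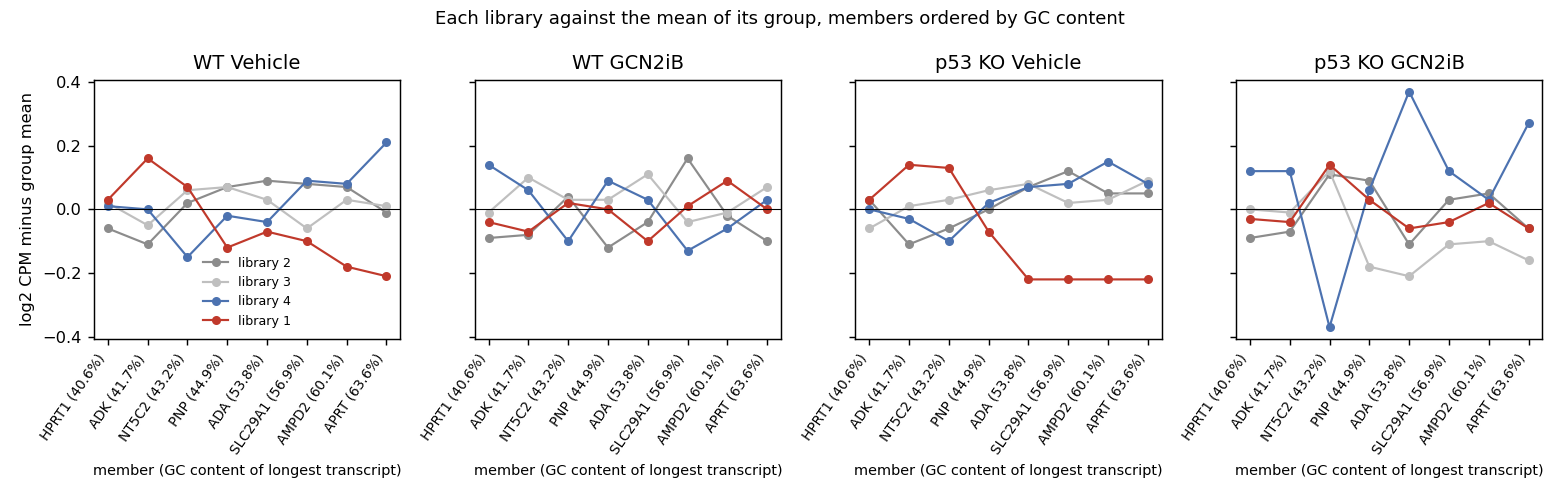
Difference of each library from the mean of its group, in log2 CPM, for 8 members ordered by the GC content of the longest transcript, in the 4 groups. The first vehicle library of both genotypes runs from above 0 at low GC to below 0 at high GC, and p53 KO GCN2iB replicate 4 has the lowest NT5C2.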

How the data were processed

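Total RNA of 16 LNCaP samples was sequenced in paired ends, per the labels' protocols. The authors deposited raw, unnormalized counts per gene. Per the submitters' processing notes, the tools were HISAT2, featureCounts, Trim Galore and DESeq2 (no versions) and the build GRCh38. Annotation release and strand setting: not given in the sources used here.

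Counts were fitted in R 4.3.3 with edgeR 4.0.16 (filterByExpr, TMM scaling, factors 0.953 to 1.049, robust quasi-likelihood fit, 1 term per group over all 16 libraries, two-sided tests). The 18549 genes kept held at least 99.906% of the counts of each library. SE is the log2 change over the square root of F, and 95% intervals use the t distribution of the fit. Symbols came from reference tables (62700 of 62754 identifiers) and positions, lengths and GC content from GENCODE 29 (58261). CPM per kb uses union exon length. Alternatives used DESeq2 1.42.0 and limma 3.58.1, a replicate block, other scalings and filters, the removal of GC and length trends (5 spline degrees of freedom, fitted on 12999 genes, applied to 17678), and each library left out. Scripts were tested on simulated data. Tables and plots used Python 3.11.15, pandas 2.3.3 and matplotlib 3.10.9.

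The members, the gene lists and the alternatives were chosen with earlier results of these data known. All 10 members are named. From each other list the rule named up to 4 called genes per comparison, by the size of change, where the higher mean reached 5 CPM, and a selection of these is printed. The rule for naming genes of like pattern needed a called change of at least 0.5 on the log2 scale and 0 members met it. The transcript of the targeted gene is not reported here.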

Additional observations from a re-analysis of the deposited data

Results flagged for a closer look

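Of 38 groups of 4 libraries tested for a single library far from its companions (Dixon's test, 95% critical value), 4 were flagged, and chance flags about 1 in 20. In p53 KO vehicle, replicate 1 was low for APRT (218 CPM against 264 to 271) and for ADA (9.22 CPM against 11.3 to 11.4). In p53 KO GCN2iB, replicate 4 was low for NT5C2 (37.1 CPM against 51.9 to 52.8). The SLC43A3 value of p53 KO GCN2iB replicate 2 (0.0951 CPM) was 3 counts where the other 3 libraries had 0. Such a library is flagged whatever its count, so this flag says nothing about the size of the value. No difference between the GCN2iB responses of the genotypes passed the test for any member.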

How the results depend on the processing

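Of the members' values and counts, 477 of the values under another setting and 442 of those with a library left out kept their direction and side of the threshold, 17 and 30 lost a call, 7 and 2 gained one, and 17 and 30 changed sign. Depth limits AMPD3 and SLC43A3.

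The count of members called with GCN2iB in p53 KO went from 5 to 2 with library totals as scaling, beside 22% of all genes. It was 3 with no count filter (8.95% of all genes) and 3 with only the groups compared (17.1%). Without the fourth GCN2iB library of both genotypes it was 2 (16.1%). With each library left out it ranged from 1 to 4 (14.9% to 19.6%). The count between genotypes under vehicle went from 4 to 2 with a mean of at least 50 counts, beside 24.8% of all genes. The cause was not tested.

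Values that changed sign were not called. AMPD2 for the difference of the responses read -0.01 with DESeq2 size factors, no count filter and the DESeq2 test, -0.03 with library totals, -0.04 where the mean had to reach 50 counts and -0.02 without the replicate 4 libraries. Library totals gave 0 and -0.03 for AMPD2 with GCN2iB in WT and p53 KO, and 0.02 for NT5C2 between genotypes under GCN2iB. With the GC and length correction APRT read -0.04 with GCN2iB in WT, 0.03 between genotypes under GCN2iB and -0.01 for both changes against neither, and NT5C2 -0.04 between genotypes under vehicle. Without the replicate 4 libraries ADA read -0.01 with GCN2iB in p53 KO, NT5C2 0.07 between genotypes under GCN2iB and 0.06 for the difference of the responses, and PNP 0 for that difference. With each library left out, the difference of the responses ranged from -0.17 to 0.02 for ADA, -0.08 to 0.05 for AMPD2, -0.08 to 0.10 for NT5C2, -0.06 to 0.03 for PNP and -0.12 to 0.01 for SLC29A1. With GCN2iB in p53 KO, ADA ranged from -0.01 to 0.19 and AMPD2 from -0.04 to 0.09, and AMPD2 in WT from -0.01 to 0.07. Between genotypes NT5C2 ranged from -0.04 to 0.03 under vehicle and -0.08 to 0.10 under GCN2iB. For both changes against neither, ADK ranged from -0.07 to 0.02 and AMPD3 from -0.53 to 0.19.

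Over all genes, GC and length correction changed the calls from 2153 higher and 2524 lower to 3577 and 2108 with GCN2iB in WT, from 2119 and 1615 to 4005 and 1477 in p53 KO, from 1787 and 2238 to 1924 and 3944 between genotypes under vehicle, and from 2356 and 2085 to 2336 and 3199 under GCN2iB. Library totals gave 1401 and 2672 in p53 KO and 2467 and 1593 between genotypes under vehicle. The 1 gene called for the difference of the responses became 2 with DESeq2 size factors, 4 with library totals, 13 higher and 34 lower with no count filter, 6 lower where the mean had to reach 50 counts, 20 higher and 19 lower with the DESeq2 test, 35 and 26 with the replicate block, 31 and 8 with the GC and length correction, and 2 and 4 without the replicate 4 libraries. It was 19 and 15 without WT GCN2iB replicate 1, 2 and 3 without WT GCN2iB replicate 4, 3 and 7 without p53 KO GCN2iB replicate 4, and 1 or 2 genes on leaving out each other library.

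Replicate numbers were not treated as pairs, because the labels name no shared batch and 12 of the 24 same-number pairs did not reach a correlation of deviations above 0.1 (median 0.0949, range -0.0642 to 0.617). The other 12 did, and 11 of 16 libraries correlated best with their own number, a hint from the data and not the design that numbers share something. With the replicate block, 3 members were called with GCN2iB in WT, 5 in p53 KO, 5 between genotypes under vehicle and 4 under GCN2iB. Of all genes the block called 33.1% with GCN2iB in WT, 28.6% in p53 KO, 28.1% between genotypes under vehicle and 31.1% under GCN2iB. For the difference of the responses 0 members were called, beside 0.329% of all genes. For both changes against neither 4 were called, beside 43.7%. APRT was the call added under vehicle (-0.20, adjusted p = 0.0231).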
